A study of Mus musculus with 4 samples.

Results

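The genes described here are 39 that make up the machinery of DNA replication, among 32285 genes counted in single cells of the mouse small-intestinal crypt. They were taken by symbol from a list covering origin licensing, the replicative helicase, the polymerases, the sliding clamp, nucleotide supply, cyclin E and chromatin assembly behind the fork, and all 39 were found. The rule uses no measured value, but the list was drawn up with earlier results of these data known. The 4 libraries form a 0D group (0D-1, 0D-2) and a 2D group (2D-1, 2D-2), and where 4 values of a gene or share follow each other they stand in that order. The study set mice deprived of sleep against mice not yet deprived, so 0D is read here as before deprivation and 2D as after it, although the labels do not spell out the letter D. All 4 libraries come from small-intestinal crypts freed with EDTA and run on a 10x Genomics 3′ kit, and the labels give no strain, age, sex or other treatment. They do not say whether libraries of a group came from separate mice, so a p-value reflects library-to-library spread alone, which could be technical.

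A cell copies its DNA once per cycle, during S phase. In G1 the origin recognition complex, Cdc6 and Cdt1 load the ring of Mcm2 to Mcm7 onto DNA, a step called licensing, and Mcm10, Cdc45 and the GINS complex then turn that ring into an active helicase. Polymerases, the Pcna clamp and the enzymes that make deoxynucleotides complete the copy, and many of these genes are switched on together at the start of S phase by E2F transcription factors. In the crypt, stem cells and their transit-amplifying daughters pass through this cycle quickly, while mature enterocytes and secretory cells have left it.

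Of the 39 genes, 31 had a promoter entry in the RefSeq table of build GRCm38.p6, which covers 250 bases before to 50 bases after a transcript start. Each window was searched on both strands for the E2F-type octamers TTTGGCGC, TTTCCCGC and TTTCGCGC, which can overlap each other at their GC ends. At least 1 of them was found for 14 of the 31 genes (45.2%), against 572 of 26742 genes in the table (2.14%). Over single windows the shares were 0.519% for TTTGGCGC, 1.08% for TTTCCCGC and 0.326% for TTTCGCGC. A match describes these letters only and is not evidence of a bound factor. The 6 windows below belong to genes whose levels are followed below; they are shown 5′ to 3′ along the gene, with the matched octamers in capitals.
Mcm7 (chr5:138171834-138172133, minus strand): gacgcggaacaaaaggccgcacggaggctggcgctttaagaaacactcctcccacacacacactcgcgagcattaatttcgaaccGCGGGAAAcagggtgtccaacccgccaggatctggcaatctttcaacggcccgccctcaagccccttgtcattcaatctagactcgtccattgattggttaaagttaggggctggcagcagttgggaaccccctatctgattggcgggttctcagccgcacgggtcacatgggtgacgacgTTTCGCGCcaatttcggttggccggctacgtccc
Mcm6 (chr1:128359656-128359955, minus strand): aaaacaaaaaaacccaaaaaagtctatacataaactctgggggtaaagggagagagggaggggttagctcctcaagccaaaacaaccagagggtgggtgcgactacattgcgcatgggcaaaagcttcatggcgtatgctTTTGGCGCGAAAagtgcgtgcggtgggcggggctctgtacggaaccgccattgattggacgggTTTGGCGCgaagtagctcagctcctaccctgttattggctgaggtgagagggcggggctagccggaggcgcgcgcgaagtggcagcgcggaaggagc
Mcm5 (chr8:75109259-75109558, plus strand): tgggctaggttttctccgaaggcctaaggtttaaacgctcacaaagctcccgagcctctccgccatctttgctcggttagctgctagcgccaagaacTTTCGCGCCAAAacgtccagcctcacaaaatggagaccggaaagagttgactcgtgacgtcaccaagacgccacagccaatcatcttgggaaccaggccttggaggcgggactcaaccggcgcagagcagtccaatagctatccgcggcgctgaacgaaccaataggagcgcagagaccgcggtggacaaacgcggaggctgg
Pold3 (chr7:100121453-100121752, minus strand): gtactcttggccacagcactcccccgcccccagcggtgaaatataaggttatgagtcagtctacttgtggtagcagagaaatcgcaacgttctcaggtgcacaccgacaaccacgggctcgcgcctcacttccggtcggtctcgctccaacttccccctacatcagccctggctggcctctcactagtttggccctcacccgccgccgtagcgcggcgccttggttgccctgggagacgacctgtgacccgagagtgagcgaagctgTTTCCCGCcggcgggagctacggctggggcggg
Lig1 (chr7:13278576-13278875, plus strand): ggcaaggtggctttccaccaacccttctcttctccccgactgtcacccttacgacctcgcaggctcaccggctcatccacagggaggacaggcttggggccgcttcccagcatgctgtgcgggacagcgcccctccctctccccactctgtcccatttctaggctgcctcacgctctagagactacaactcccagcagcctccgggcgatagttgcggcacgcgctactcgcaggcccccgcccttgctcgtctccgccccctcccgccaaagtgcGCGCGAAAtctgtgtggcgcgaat
Uhrf1 (chr17:56304063-56304362, plus strand): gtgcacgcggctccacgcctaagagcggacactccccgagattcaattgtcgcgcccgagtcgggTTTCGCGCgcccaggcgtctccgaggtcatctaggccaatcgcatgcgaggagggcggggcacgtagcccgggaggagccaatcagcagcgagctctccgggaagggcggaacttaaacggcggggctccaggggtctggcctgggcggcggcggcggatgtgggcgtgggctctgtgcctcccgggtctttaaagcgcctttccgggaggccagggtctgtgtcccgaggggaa
The Mcm6 window held 3 matches, of which 2 overlap in 1 run of capitals, and the last began 47 bases before the transcript start. Both matches of Mcm5 also overlap, beginning 153 and 149 bases before the start. In Pold3 and Lig1 the single match lay after the start, by 17 and 26 bases. The Pcna, Tyms, Dut and Slbp windows held none of the 3 octamers.

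After barcodes with under 500 genes or over 20% mitochondrial UMIs had been removed, 7025 to 7988 cells a library remained. A UMI, or unique molecular identifier, counts 1 captured transcript molecule. The median epithelial cell had 12118.5, 13351.5, 11135 and 9249 UMIs. The 2D libraries lay further apart than the 0D libraries in each of the 5 sets of cells tested (root mean square log2 difference over genes of 0.422 to 0.461 against 0.254 to 0.282). The edgeR tests of these 5 sets, and the gate-by-group term described below, were therefore repeated without 2D-1 or 2D-2, and changed calls are given. Results that rest on the S gate, described below, were not repeated in this way. Nor was the comparison of levels between dividing and other cells. Any 2 libraries shared 13 to 16 cell barcodes (at most 0.228% of cells), none with the same UMI total. Cells with 3 or more markers of a blood, connective tissue or vessel list were left out, which by itself lowers these markers. In the remaining dividing cells no single list summed to more than 3.85 CPM (UMIs per 1000000 UMIs). The highest was that of B and plasma cells, and those of T cells, fibroblasts and red cells were at or near 0.

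Cells were sorted by scores built from marker genes that hold none of the 39. Stem, absorptive and secretory cells were those with the highest and sufficiently high lineage score. Dividing cells scored at least 1.0 SD above the mean for 18 genes of mitosis such as Mki67, Top2a and Ccnb1. A separate S gate used the same level on 10 other S phase genes such as Hells, Clspn and Atad2. These sets are ranges of a score, not cell types, and 92 to 140 cells a library lay within 0.1 SD of the dividing cut. The label of the gene list held against the S gate: each of the 39 genes had a higher level in S-gated cells than in the remaining epithelial cells of the same library, in 4 of 4 libraries. Mean ratios ran from 3.51 for Slbp to 18.3 for Ccne1. The share of all genes higher in S-gated cells is not given here.

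Summed over all epithelial cells, the 39 genes each had a log2 change from 0D to 2D below 0, with a median of -0.38 against 0.01 over all 15403 genes tested, of which 49.2% were below 0. Both 2D libraries lay below both 0D libraries for 37 of the 39, against 38.3% of all genes. In edgeR's quasi-likelihood test with Benjamini-Hochberg adjustment, 0 of the 39 passed an adjusted p of 0.05 (smallest 0.144), as did 0 of all genes (0%). At an unadjusted p under 0.05 in edgeR, 30 of the 39 were lower and 0 higher, against 9.19% of all genes lower. DESeq2 called 12 of the 39, against 5.66% of all genes. Without 2D-1 edgeR called 30 of the 39 (24.4% of all genes), without 2D-2 it called 16 (10.6%), and without either 0D library 0. Log2 changes here carry edgeR's TMM scaling between libraries, whereas levels in CPM do not. The makeup of that sum differed between the libraries too. Secretory cells were 47.5%, 53.4%, 64.1% and 75.9% of epithelial cells and stem cells 20.3%, 15.9%, 11.2% and 9.35%. Of 10000 UMIs in the median cell, goblet markers took 39.3, 84.2, 254.4 and 593.5 and Paneth markers 20.9, 30.2, 74.5 and 90.1, and the Paneth marker Lyz1 stood at 7116, 6918, 10823 and 13689 CPM. Their part in the result was not tested. In a sum over cells, fewer cells of a replicating kind and less RNA per cell cannot be told apart.

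The largest differences in that sum belonged to licensing and chromatin genes. Mcm3, a subunit of the helicase ring (chr1:20802968-20820312, minus strand, mm10, GENCODE), stood at 34.7 and 33.7 CPM in 0D and at 22.9 and 19.1 in 2D. Its log2 change was -0.60 ± 0.08 (SE; adjusted p = 0.144, edgeR). Uhrf1 (chr17:56303321-56323486, plus strand), which brings the maintenance DNA methyltransferase to newly copied DNA, stood at 31.3, 29.4, 21.4 and 16.5 CPM (log2 -0.58 ± 0.10, adjusted p = 0.146, edgeR). Cdt1 (chr8:122568015-122573554, plus strand), which helps load the Mcm ring, stood at 17.4, 15.2, 11.8 and 8.63 CPM (log2 -0.57 ± 0.14, adjusted p = 0.162, edgeR). In these 3 genes the groups did not overlap, and 2D-2 was the lowest library. At the other end stood Slbp, the protein that binds the stem-loop of histone mRNA, at 56.6, 54.4, 47.8 and 47.6 CPM (log2 -0.10 ± 0.09). Rrm2, the small subunit of ribonucleotide reductase, and Mcm10 were the 2 whose libraries overlapped. For Rrm2 the level in 2D-1 was 22.8 CPM, against 22.2 and 22.7 in 0D.

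By role, the median log2 change over all epithelial cells was -0.47 for the 10 licensing genes, -0.34 for the 5 of helicase activation and -0.39 for the 7 of primase and polymerases. It was -0.35 for the 7 of the clamp, its loader and the lagging strand, -0.31 for the 4 of nucleotide supply, -0.37 for the 2 cyclin E genes and -0.46 for the 4 of chromatin, histone mRNA and fork protection. Every role thus lay below the median of all genes.

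**Figure D1:**
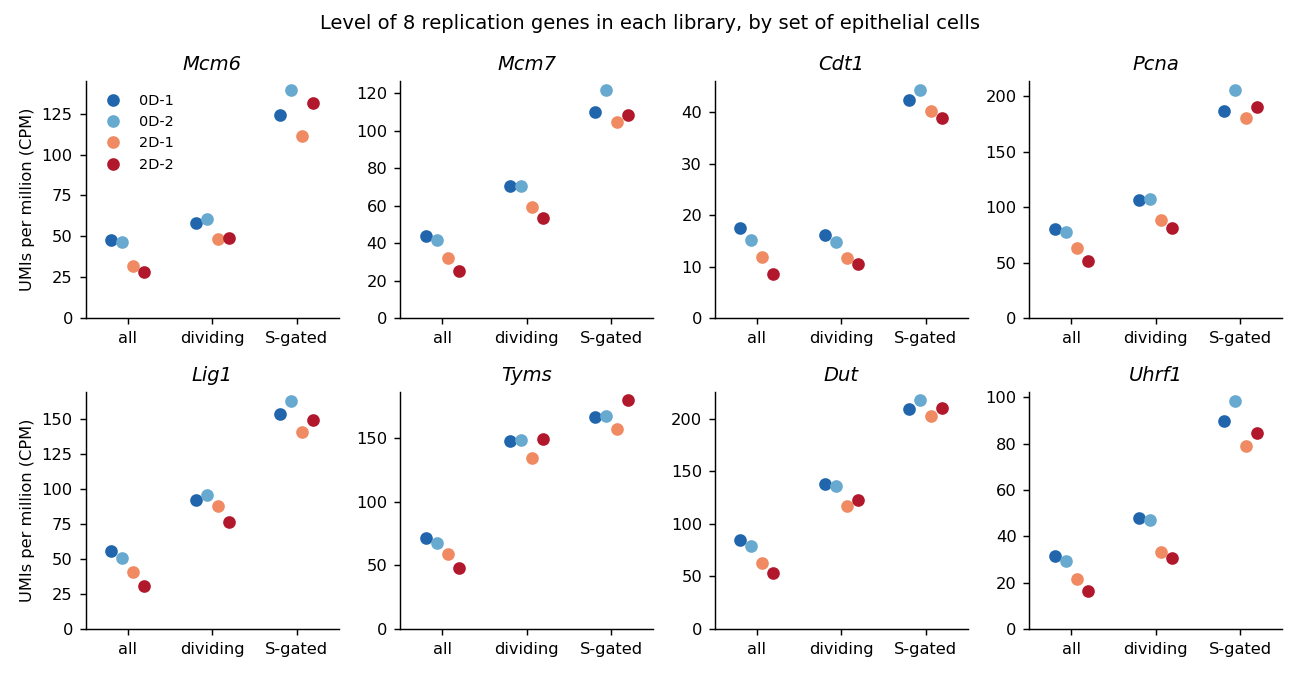
Level of 8 replication genes in CPM (linear axis from 0), 1 point per library, in all epithelial cells, in dividing cells and in S-gated cells. Over all cells both 2D points lie below both 0D points for each of the 8 genes, as for Mcm6 at 47.7 and 46.6 against 32.0 and 28.2. In S-gated cells the groups overlap for Mcm6, Pcna, Tyms and Dut, and both 2D points stay below both 0D points for Mcm7, Cdt1, Lig1 and Uhrf1.

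The share of cells past the S gate and past the mitosis gate was lower in both 2D libraries. The S gate took 21.5%, 19.4%, 13.6% and 10.5% of epithelial cells, or 20.5% ± 1.51 in 0D and 12.0% ± 2.17 in 2D (SD, n = 2). The mitosis gate took 20.3%, 18.6%, 17.2% and 11.1%, or 19.4% ± 1.21 and 14.1% ± 4.36 (SD, n = 2). An exact permutation test over the 4 libraries, with no direction set beforehand, gave p = 0.333 for both, the smallest that 2 against 2 libraries allow.

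Joining the gates split the cycling cells by stage, a split chosen after the data had been seen. Cells above the S gate alone made up 9.70% (95% Clopper-Pearson interval 9.04 to 10.39), 9.48% (8.81 to 10.18), 6.01% (5.47 to 6.60) and 5.72% (5.22 to 6.25) of epithelial cells. The 2 libraries of each group lay close together here, with means of 9.59% ± 0.157 and 5.86% ± 0.211 (SD, n = 2; exact permutation p = 0.333). Cells above both gates made up 11.9%, 9.94%, 7.54% and 4.76%. Cells above the mitosis gate alone made up 8.43%, 8.64%, 9.68% and 6.29%, so that the groups overlapped and 2D-1 was the highest library. Intervals cover counting error only. Of mitosis-gated cells, 58.4% and 53.5% also passed the S gate in 0D, and 43.8% and 43.1% in 2D.

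Both gates were also scored on cells thinned to 3000 UMIs, which evens out depth but leaves out shallower cells. The S-gated share was then 17.4%, 15.2%, 11.3% and 9.58%, and the share above the S gate alone was 9.54%, 8.63%, 6.29% and 6.14%. The groups stayed apart, with a difference of -5.88 percentage points in place of -8.47. The mitosis-only share again overlapped, at 10.8%, 11.0%, 11.1% and 7.27%. The genes of the S gate belong to the same programme as the 39, so a lower level of that programme in a cell would also take it below the gate, and these cannot be told apart here.

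**Figure D2:**
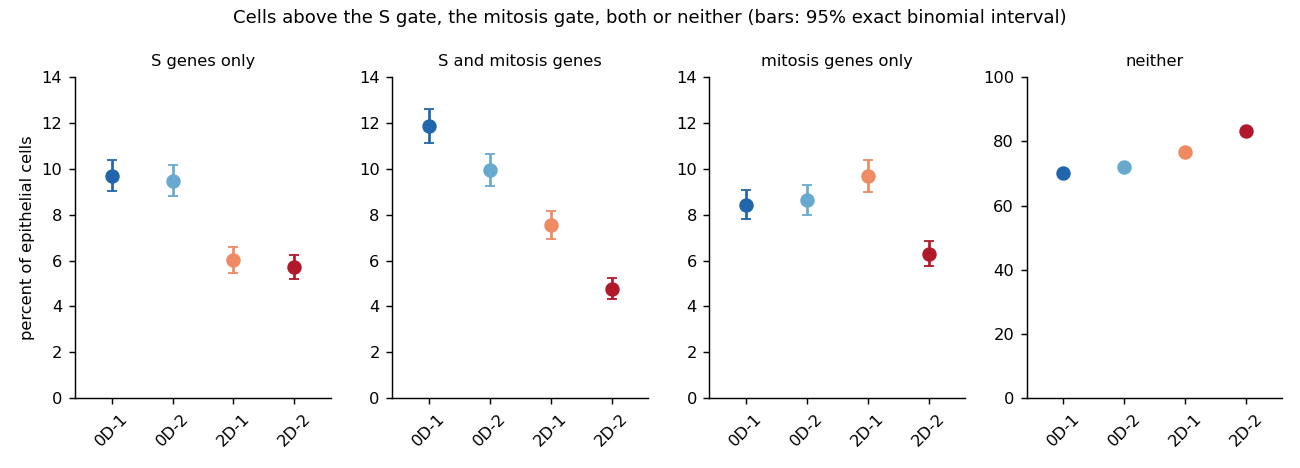
Share of epithelial cells (percent, linear axes from 0; the fourth panel has its own scale) above the S gate only, both gates, the mitosis gate only or neither, 1 point per library with its 95% exact binomial interval. The S-only share is 9.70% and 9.48% in 0D against 6.01% and 5.72% in 2D, while the mitosis-only share overlaps between the groups.

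Stem cells passed the S gate more often than absorptive or secretory cells in 4 of 4 libraries, and their rate overlapped between the groups. Within stem cells 54.7%, 60.2%, 56.8% and 48.5% passed the S gate, and 37.6%, 39.6%, 43.7% and 35.4% passed the mitosis gate. The stem gate itself held 1541 of 7578, 1135 of 7122, 787 of 7017 and 746 of 7978 epithelial cells. Within absorptive cells the S-gated share was 16.4%, 13.5%, 11.5% and 12.8%, and the mitosis-gated share was 23.6%, 23.9%, 27.6% and 20.2%. Within secretory cells the S-gated share was 3.86%, 4.44%, 2.71% and 3.22%, and the mitosis-gated share was 6.03%, 5.97%, 5.27% and 4.52%. The S-gated share was thus lower in both 2D libraries in absorptive and secretory cells, and in stem cells 2D-2 alone lay below both 0D libraries (exact permutation p = 0.333, 0.333 and 0.667).

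The next question was whether dividing cells, summed as a set, carried less replication RNA. In the sum over dividing cells, 38 of the 39 genes had a log2 change below 0, with a median of -0.20 against 0.01 over all 12891 genes tested. Both 2D libraries lay below both 0D libraries for 29 of the 39, against 23.3% of all genes. The edgeR test called 0 of the 39 (smallest adjusted p 0.23) and 0 of all genes (0%), and at an unadjusted p under 0.05 it had 16 of the 39 lower and 0 higher, against 5.22% of all genes lower. DESeq2 called 1, Uhrf1, and 0.69% of all genes. Without 2D-1 edgeR called 14 of the 39 (12.9% of all genes), and without 2D-2 it called 18 (9.58%).

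None of the 10 licensing genes passed in dividing cells (smallest adjusted p 0.357, edgeR). Mcm7, Mcm6 and Mcm5 gave the most UMIs of this role. All 10 had a log2 change below 0, 6 of them at an unadjusted p under 0.05 in edgeR. Mcm7 stood at 70.4 and 70.7 CPM in 0D and at 59.4 and 53.2 in 2D. Mcm6 stood at 57.9 and 60.8 against 48.4 and 49.0, and Mcm5 at 52.8 and 51.7 against 45.4 and 38.2. Their log2 changes were -0.32 ± 0.08, -0.28 ± 0.07 and -0.31 ± 0.09 (SE). In none of the 3 did the groups overlap. Cdt1 stood at 16.1, 14.7, 11.7 and 10.5 CPM, with a log2 change of -0.46 ± 0.12 (SE; adjusted p = 0.388, edgeR). The other 6 licensing genes, Orc1, Orc6, Cdc6, Mcm2, Mcm3 and Mcm4, ranged from -0.43 to -0.13.

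The genes that activate the helicase had a median of -0.13 in dividing cells, nearer to 0 than that of licensing. Mcm10, which helps fire the loaded helicase, stood at 43.3, 39.5, 42.7 and 37.4 CPM in dividing cells (log2 -0.04 ± 0.10). Gins1, a GINS subunit, stood at 8.95, 10.8, 9.38 and 10.4 CPM and was the one gene above 0 (log2 0.01 ± 0.15). In both genes the groups overlapped. Gins2 stood at 32.5, 34.8, 32.1 and 26.8 CPM (log2 -0.18 ± 0.10), and Cdc45 and Gins3 had log2 changes of -0.16 and -0.13. None of the 5 had an unadjusted p under 0.05 in edgeR.

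Of the primase and polymerase genes, Prim1, the catalytic subunit of the RNA primase, stood at 49.8 and 49.7 CPM in 0D and at 41.7 and 40.9 in 2D. Its log2 change was -0.26 ± 0.07 (SE; adjusted p = 0.393, edgeR) and its groups lay further apart than the libraries within them. Pold3, an accessory subunit of polymerase delta, stood at 37.5, 38.6, 30.7 and 36.9 CPM (log2 -0.17 ± 0.11), with 2D-2 close to the 0D libraries. The other 5, Pola1, Pola2, Prim2, Pold1 and Pole, ranged from -0.45 to -0.15.

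Pcna, the clamp that holds polymerases on DNA, stood at 106.3 and 107.4 CPM in dividing cells of 0D and at 88.6 and 81.5 in 2D (log2 -0.32 ± 0.07, adjusted p = 0.379, edgeR). Lig1, the ligase that seals lagging-strand fragments, stood at 92.3, 95.4, 87.8 and 76.7 CPM (log2 -0.18 ± 0.08). For both genes the groups did not overlap, and 2D-2 was lowest. Rfc2, Rfc3, Rfc4, Rpa2 and Fen1, of the clamp loader, the single-strand binding protein and the flap nuclease, ranged from -0.34 to -0.06.

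The nucleotide-supply genes had the median nearest to 0 of the 7 roles in dividing cells, -0.11. Tyms, thymidylate synthase, stood at 147.4, 148.9, 134.5 and 149.1 CPM in dividing cells (log2 -0.05 ± 0.09), with 2D-2 as high as either 0D library. Dut, the dUTPase that keeps uracil out of DNA, stood at 138.2, 136.0, 116.6 and 123.1 CPM (log2 -0.19 ± 0.08), and its groups did not overlap. Rrm1 and Rrm2 had log2 changes of -0.17 and -0.05.

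The E cyclins are the Cdk2 partners of the G1 to S transition. In dividing cells Ccne1 stood at 8.38, 8.14, 6.34 and 7.31 CPM and Ccne2 at 5.50, 5.16, 3.15 and 5.72 CPM (log2 -0.28 ± 0.14 and -0.31 ± 0.29). The groups overlapped for Ccne2, where 2D-2 was the highest library.

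Uhrf1 had the most negative change of the 39 in dividing cells. It stood at 48.0 and 47.1 CPM in 0D and at 33.4 and 30.5 in 2D, with a log2 change of -0.56 ± 0.08 (SE; adjusted p = 0.23, edgeR). The 2 libraries of each group were much closer to each other than to the other group. Slbp stood at 70.9, 66.6, 57.2 and 68.1 CPM (log2 -0.13 ± 0.11) and overlapped. Chaf1b, a subunit of chromatin assembly factor 1, and Tipin, a fork protection factor, had log2 changes of -0.18 and -0.30.

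The dividing gate did not hold the same cells in each library. Its share of stem cells was 37.7%, 33.9%, 28.5% and 29.9% and its share of secretory cells 14.1%, 17.2%, 19.6% and 31.1%. Of its cells 58.4%, 53.5%, 43.8% and 43.1% also passed the S gate. Its cells had a median of 17506, 19373, 22730.5 and 14748 UMIs. In the median dividing cell, Paneth markers took 13.2, 17.3, 25.9 and 35.4 of 10000 UMIs and goblet markers 7.69, 9.42, 9.14 and 90.2, while enteroendocrine and tuft markers were at or near 0. The part of these in the results was not tested. Within dividing cells of 1 lineage, the median of the 39 genes relative to the 0D mean was -0.20 and -0.11 (log2 CPM ratio) in 2D-1 and 2D-2 for stem cells, -0.28 and -0.18 for absorptive cells and -0.24 and -0.25 for secretory cells. The 0D libraries stood between -0.09 and 0.09 in these 3 sets. By stage, cells above both gates had medians of -0.13 and -0.02 in 2D-1 and 2D-2, overlapping with 0D (-0.03 and 0.03). Cells above the mitosis gate alone had -0.17 and -0.17, below both 0D libraries (0.02 and -0.02).

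Set on S phase genes in place of mitosis genes, the gate gave a different result for the same genes. In S-gated cells 24 of the 39 had a log2 change below 0 and 15 above, with a median of -0.05 against 0.00 over 12778 genes. Both 2D libraries were below both 0D libraries for 11 of the 39, against 21.5% of all genes, and above them for 1, Rrm2. At an unadjusted p under 0.05 edgeR had 1 of the 39, Gins2 (log2 -0.22 ± 0.08), against 9.93% of all genes, and it called 0 of the 39 and 5 of all genes (0.0391%). Pcna stood at 186.8, 206.0, 180.7 and 190.4 CPM, Tyms at 166.9, 167.6, 157.2 and 179.9 and Mcm6 at 124.0, 139.4, 111.6 and 131.8, all 3 with overlapping groups. Uhrf1 stood at 89.8, 98.3, 78.9 and 84.7 CPM (log2 -0.20 ± 0.08, adjusted p = 0.498, edgeR), where 2D-2 was nearer to 0D than in dividing cells. The groups of Uhrf1, Mcm7, Cdt1 and Lig1 did not overlap. A gate at a fixed level of S phase genes also holds the genes that follow them near 1 level, so this comparison cannot show that the RNA per replicating cell is the same in both groups. A gate asking for a UMI of both Mki67 and Top2a gave a median of -0.14.

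**Figure D3:**
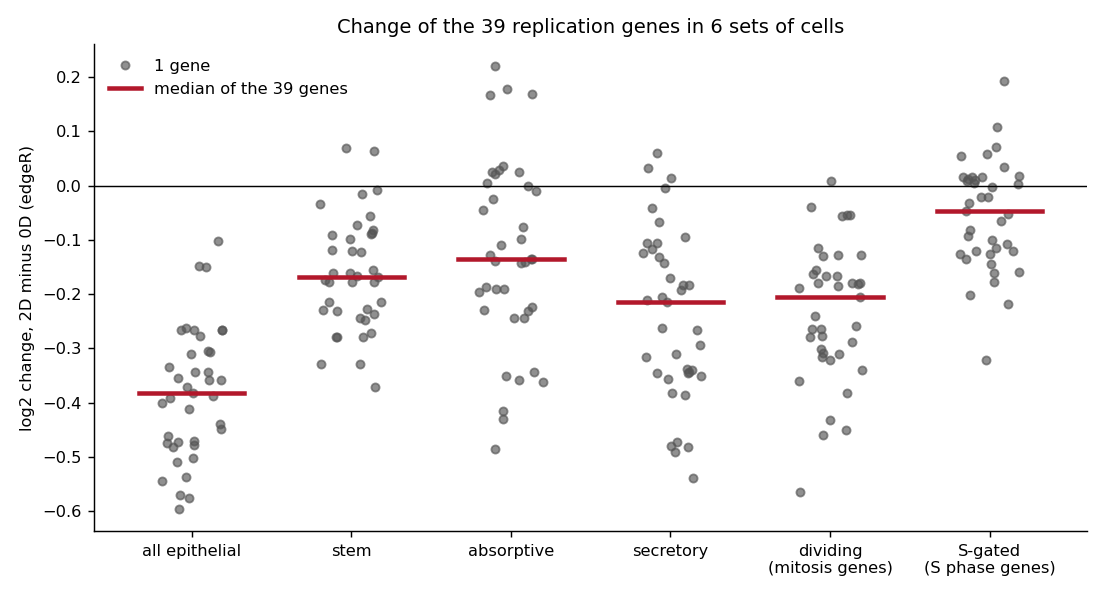
Log2 change from 0D to 2D (edgeR) of each of the 39 genes in 6 sets of cells, 1 point per gene, with the median as a bar. The median runs from -0.38 in all epithelial cells to -0.05 in S-gated cells.

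Lineages were then compared one by one. In stem cells 37 of the 39 had a log2 change below 0 (median -0.17 against 0.00 over all genes, of which 49.9% were below 0), 21 had both 2D libraries below both 0D libraries (18.3% of all genes did), and 12 were lower at an unadjusted p under 0.05 in edgeR (6.55% of all genes). In absorptive cells 29 were below 0 (median -0.14), 13 had both 2D libraries below (23.1% of all genes) and 4 were lower at an unadjusted p under 0.05 (6.21%). That median was 0.01 without 0D-1. In secretory cells 36 were below 0 (median -0.21), 30 had both 2D libraries below (32.4% of all genes) and 10 were lower at an unadjusted p under 0.05 (4.75%, and 9.26% in either direction). The edgeR test called 0 of the 39 in each of these 3 sets, as did DESeq2, against 0%, 0.0645% and 0% of all genes in edgeR and 1.77%, 1.12% and 0.498% in DESeq2, which gave no adjusted p for 1 of the 39 in stem cells. Without 2D-2, edgeR called 5, 4 and 19 of the 39 in stem, absorptive and secretory cells, against 5.69%, 13.4% and 30.8% of all genes. Without 2D-1 it called 0, 1 and 2, against 4.68%, 5.48% and 5.07%. In secretory cells all 18 markers of the mitosis gate were below 0 as well (median -0.39, 14 at an unadjusted p under 0.05 in edgeR), and Paneth-like cells numbered 496, 542, 1206 and 1622. There Lyz1 stood at 16604, 14182, 20491 and 18838 CPM and the goblet gene Muc2 at 6000.2, 6176, 5840 and 4862, and the part of these was not tested.

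Named genes differed in how they stood across lineages. Pcna stood at 152.3, 165.3, 138.6 and 138.0 CPM in stem cells, 68.5, 64.5, 61.7 and 58.6 in absorptive cells and 36.4, 38.6, 31.3 and 31.7 in secretory cells. Tyms stood at 129.0, 132.8, 128.2 and 136.7 CPM in stem cells and 68.7, 67.4, 69.8 and 66.4 in absorptive cells. The groups of Pcna did not overlap in any of the 3 lineages, while those of Tyms overlapped in stem and absorptive cells. Uhrf1 stood at 9.46, 9.47, 6.95 and 6.86 CPM in secretory cells (log2 -0.39 ± 0.11) and at 71.0, 79.4, 68.9 and 67.8 in stem cells, again without overlap.

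Whether the change differed between dividing and other epithelial cells was tested as a gate-by-group term in edgeR, with library as a block. The term was above 0 for 33 of the 39, meaning a less negative change in dividing than in other cells, against 56.5% of all 14778 genes tested. It passed for 2, Lig1 (0.43 ± 0.09 SE, adjusted p = 0.0277, edgeR) and Mcm6 (0.36 ± 0.08, adjusted p = 0.032, edgeR), and 2.46% of all genes passed, 2.02% of all genes with a term above 0. All 18 markers of the mitosis gate also had a term above 0 (median 0.30). These markers set the gate, which holds them near 1 level in dividing cells (median log2 change -0.02) but not in other cells. For them, and for genes that follow them, this cannot be told apart from a change that differs between the cells. Among other cells, secretory cells made up 56.0%, 61.7%, 73.4% and 81.5% and stem cells 15.9%, 11.8%, 7.63% and 6.79%, and their part in the term was not tested. In other cells Lig1 stood at 41.6, 35.7, 24.5 and 22.0 CPM and Mcm6 at 43.9, 41.8, 26.3 and 24.4. Neither passed without 0D-1 (0.45% of all genes did) and Lig1 alone passed without 0D-2 (1.01%), whereas 11 of the 39 passed without 2D-1 (6.04%) and 9 without 2D-2 (15.4%). With the gate built from S phase genes 0 of the 39 passed.

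Not every replication gene was higher in dividing cells. The level in dividing cells over that in other cells of the same library was tested with library as a block, a test added after the tests were set. In edgeR 38 of the 39 differed, 35 of them higher in dividing cells, against 70.5% of all genes that differed and 35.1% that were higher. The mean ratio over 4 libraries was 4.26 ± 0.619 for Rrm1, 4.20 ± 0.217 for Rrm2, 4.10 ± 0.702 for Tyms and 3.98 ± 0.793 for Mcm10 (SD, n = 4). It was 1.08 ± 0.269 for Cdc6, 1.03 ± 0.166 for Cdt1 and 1.01 ± 0.298 for Ccne2 (SD, n = 4), which act before or at the start of S phase. These 3 had a negative term in edgeR after library scaling, and their ratio was below 1 in 3 of 4 libraries, all but 2D-2.

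The stage split also set the genes apart from each other. In 4 of 4 libraries, 35 of the 39 had their highest level in cells above the S gate alone. The share of all genes that did so is not given here. Tyms alone was highest in cells above both gates in 4 of 4 libraries, at 177.9, 179.2, 161.4 and 186.6 CPM against 149.6, 151.4, 150.2 and 172.8 in S-only cells. Cdc6 stood at 35.6, 40.5, 30.4 and 41.8 CPM in S-only cells, at 9.61, 9.72, 7.37 and 11.6 in cells above both gates and at 1.99, 1.67, 0.733 and 2.56 in mitosis-only cells. The S-only level over that in cells above both gates was 3.90 ± 0.29 for Cdc6, 3.70 ± 0.542 for Ccne2, 3.36 ± 0.243 for Cdt1 and 2.72 ± 0.274 for Ccne1 (SD, n = 4). It was 2.57 ± 0.138 for Mcm4 and 2.45 ± 0.126 for Mcm3, 1.75 ± 0.06 for Pcna, 1.35 ± 0.118 for Lig1 and 0.95 ± 0.047 for Rrm1 (SD, n = 4). Cdc6, Cdt1 and the cyclin E genes thus stood at the S-only end and nucleotide-supply genes such as Rrm1 and Tyms at the other. This order is a description of gates that use genes of the same cycle.

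**Figure D4:**
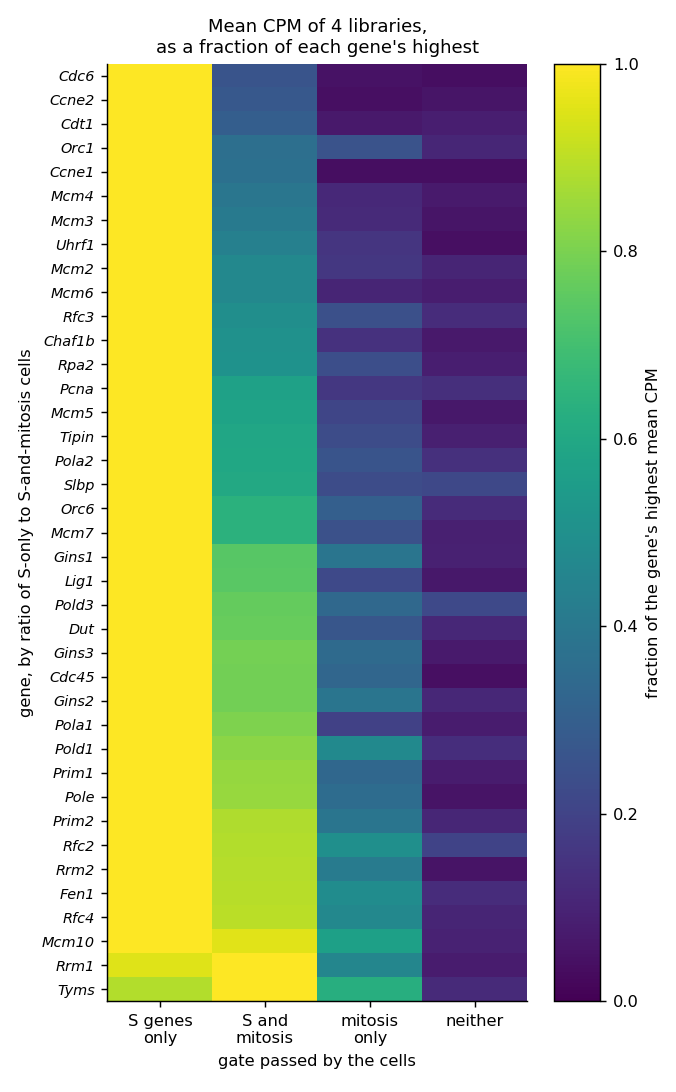
Mean level of each of the 39 genes over the 4 libraries, as a fraction of its own highest value (colour scale from 0 to 1), in cells above the S gate only, both gates, the mitosis gate only or neither. Genes are ordered by the ratio of the S-only level to the level in cells above both gates, from Cdc6 (3.90) at the top to Tyms (0.89) at the bottom.

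Per cell, the same genes were counted after thinning each cell to 3000 UMIs, which left 6373 to 7170 cells a library. Cells below that depth were left out, and they numbered 408, 526, 644 and 1055, so the loss was larger in 2D. A cell then showed 2.78, 2.58, 2.05 and 1.87 of the 39 genes on average. In dividing cells the mean was 4.77 and 4.61 in 0D against 4.03 and 4.02 in 2D, and in stem cells 5.91 and 6.23 against 5.47 and 5.56. In absorptive cells it was 2.01, 1.90, 1.86 and 1.80 and in secretory cells 1.18, 1.22, 1.10 and 1.11. In each of these 5 sets both 2D libraries were below both 0D libraries (exact permutation p = 0.333, the smallest possible). The difference in secretory cells, -0.0927, was no longer negative with a stricter lineage gate and was smaller without the highest doublet scores. Absorptive cells outside the dividing gate, however, had 1.48, 1.31, 1.32 and 1.45 genes per cell, with overlapping groups. Those inside it had 3.71, 3.66, 3.21 and 3.11. Without thinning, stem cells showed 17.4, 18.8, 18.7 and 14.6 of the 39 and absorptive cells 8.07, 7.89, 9.01 and 6.76, and the groups overlapped in both.

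Secretory cells outside the dividing gate, which should hold few replicating cells, were taken as background, with 1.01, 1.05, 0.977 and 0.995 genes per cell at 3000 UMIs. Stem cells outside the dividing gate were far above it, with 6.07, 6.71, 5.80 and 5.91 genes per cell. That was more than dividing stem cells had in the same library (5.64, 5.52, 5.05 and 4.98). Non-dividing here means only below the mitosis gate, and such cells can be in S phase. Among non-dividing stem cells 18.3%, 24.4%, 21.2% and 20.6% showed at least 10 of the 39, with overlapping groups, against 1.03%, 1.38%, 0.725% and 0.988% of non-dividing secretory cells. Among dividing cells the share was 9.10% and 9.08% in 0D and 5.24% and 6.69% in 2D. By stage, S-only cells showed 8.74, 8.83, 8.35 and 8.98 genes per cell, with overlapping groups. In each of the other stages both 2D libraries were below both 0D libraries. Cells above both gates had group means of 6.14 genes per cell in 0D and 5.90 in 2D. Cells above the mitosis gate alone showed 2.83, 2.74, 2.62 and 2.46, and cells above neither gate showed 1.29, 1.15, 1.01 and 0.996.

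**Figure D5:**
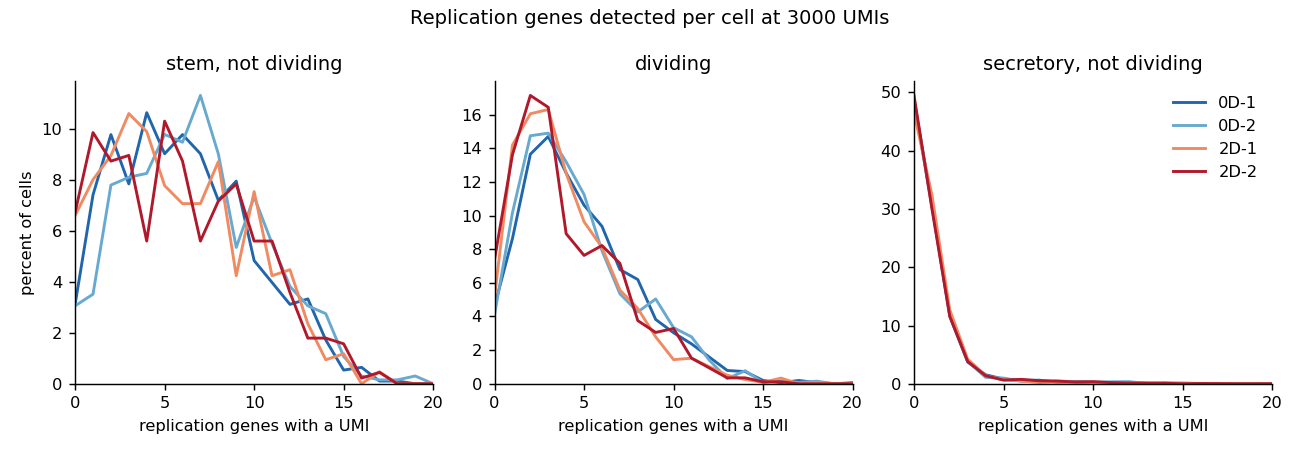
Number of the 39 genes with a UMI per cell at 3000 UMIs (horizontal axis) against the percent of cells (vertical axes differ between panels), 1 line per library, for stem cells outside the dividing gate, dividing cells and secretory cells outside the dividing gate. Stem cells outside the dividing gate, which can be in S phase, reach far to the right in all 4 libraries. Of them 18.3% to 24.4% show 10 genes or more, while secretory cells outside that gate stay near 1.

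As shares of positive cells at 3000 UMIs in dividing cells, 21 of the 39 genes had both 2D libraries below both 0D libraries and 0 had both above, against 19.9% and 22.1% of the 12891 genes tested there. Mcm6 had a UMI in 16.3% and 15.4% of dividing cells in 0D and 11.8% and 12.8% in 2D. Uhrf1 had one in 11.5% and 13.3% against 8.02% and 7.28%. Tyms had one in 34.5%, 35.2%, 29.7% and 37.0% and overlapped. In non-dividing secretory cells, taken as background, the shares at the same depth were 3.33% to 4.08% for Mcm6, 1.46% to 1.75% for Uhrf1 and 4.54% to 5.06% for Tyms. Unthinned, Mcm6 was found in 50.2%, 49.4%, 49.3% and 39.5% of dividing cells. In non-dividing stem cells at 3000 UMIs, Mcm6 was found in 33.1%, 36.6%, 28.2% and 29.1% and Lig1 in 30.3%, 32.1%, 21.6% and 25.7%, both without overlap. Uhrf1 overlapped there, at 17.3%, 20.9%, 16.9% and 20.8%. Of the 39 genes, 12 had both 2D libraries below both 0D libraries in these stem cells, 1 had both above and 26 overlapped. The share over all genes is not given for this set, so these counts cannot be judged against it.

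Of the rest of the replication pathway, 78 genes in 5 lists were followed, some of which, such as Clspn and Ccna2, also build the S gate. The edgeR test called 0 of them in any of the 5 sets of cells. Of 30 other fork genes, 27 had a log2 change below 0 over all epithelial cells (median -0.27) and 20 in dividing cells (median -0.13). Pole3, a small subunit of polymerase epsilon, stood at 59.0, 61.7, 49.3 and 38.1 CPM over all cells, and Rfc1, the large clamp loader subunit, at 91.1, 93.1, 87.4 and 92.5, where the groups overlapped and the scaled log2 change was 0.09. Of 12 other nucleotide genes 10 were below 0 over all cells (median -0.22). Dctpp1, which clears non-canonical nucleotides, stood at 135.8, 121.4, 90.3 and 81.6 CPM, and the nucleoside diphosphate kinase Nme1 at 461.5, 489.7, 402.1 and 447.1, both without overlap. With scaling, the log2 change was -0.47 ± 0.09 for Dctpp1 and -0.04 ± 0.14 for Nme1 (SE).

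Of 19 genes of G1 to S control, 14 were below 0 over all cells (median -0.18) and 13 in dividing cells (median -0.08). Ccnd2, a D cyclin, stood at 327.5, 307.0, 316.2 and 308.6 CPM over all cells with overlapping groups, and its partner Cdk4 at 126.3, 116.1, 93.2 and 93.2. The 7 brakes and licensing inhibitors were split, with 3 below and 4 above 0 (median 0.12). Gmnn, geminin, the inhibitor of Cdt1, stood at 64.6, 64.7, 50.2 and 38.5 CPM and the Cdk inhibitor Cdkn1b at 49.8, 49.6, 50.3 and 49.3. Of 10 fork checkpoint genes 7 were below 0 (median -0.10). Wee1, a kinase that restrains Cdk1, stood at 21.5, 18.7, 15.3 and 14.3 CPM and Rad17, which loads the checkpoint clamp, at 21.5, 21.2, 20.9 and 19.6. Over all epithelial cells the medians of 4 of these lists lay between those of the 39 genes and of all genes, and that of the brakes was above both. In dividing cells the median of the brakes was -0.14.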

How the data were processed

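Single-cell RNA-seq of mouse small-intestinal crypt cells gave 4 libraries, 2 labelled 0D and 2 labelled 2D. The deposited matrices hold whole-number UMI counts per gene and cell. The submitters' processing notes name Cell Ranger 2.1.1 and build mm10, whereas the file header names 7.0.0; for the annotation and for intron counting, not given in the sources used here. The 39 genes, the lists and the tests were chosen with earlier results of these data known.

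Cells needed at least 500 genes and at most 20% mitochondrial UMIs. Marker scores (mean log of counts per 10000) gave the gates; their levels (lineage 0.5, dividing and S gate 1.0 SD) and the stage split were set after seeing the data. Cells with 3 or more markers of a non-epithelial list were left out. Scrublet called 624, 367, 521 and 0 cells, so it did not work in 2D-2, and doublets were kept. Per-cell counts were thinned to 3000 UMIs. Counts were summed per library and gate and tested with edgeR 4.0.16 (filterByExpr, TMM, quasi-likelihood, Benjamini-Hochberg over all genes, threshold 0.05) under R 4.3.3, with DESeq2 1.42.0 as an alternative. On data simulated for all epithelial cells edgeR called 86 of 98 genes changed 2-fold, 97 of 97 changed 4-fold and 12 of 15054 unchanged genes. That simulation gave every library the same fixed spread. In the real data over all epithelial cells, the root mean square log2 difference was 0.269 within 0D and 0.440 within 2D. The simulated calls therefore do not show how many real changes of these sizes would pass. Replicate numbers did not pair the libraries. Named genes were those of each role with the most UMIs in dividing cells (3 for licensing, 2 otherwise) and the 2 most negative and 2 most positive there; others named were chosen after their values were seen. Other alternatives were other filters, scalings, gates, depths and each library left out.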

Additional observations from a re-analysis of the deposited data

Results flagged for a closer look

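The change from 0D to 2D differed between dividing and other epithelial cells for 2 replication genes in edgeR's gate-by-group term, which passed for 2.46% of all genes. For Mcm6 the change in dividing cells minus that in other cells was 0.36 on the log2 scale (adjusted p = 0.032, edgeR). For Lig1 it was 0.43 (adjusted p = 0.0277, edgeR). The other cells differed in makeup between the groups: secretory cells were 56.0% and 61.7% of them in 0D and 73.4% and 81.5% in 2D. The part of this makeup in either term was not tested. Both terms lost their call without 0D-1, and with the gate built from S phase genes, and that of Mcm6 also without 0D-2.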

How the results depend on the processing

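With 2 libraries a group, which libraries enter decides most calls. Leaving out 1 library at a time, edgeR called 0 to 30 of the 39 genes over all epithelial cells, 0 to 18 in dividing, 0 to 5 in stem, 0 to 4 in absorptive and 0 to 19 in secretory cells, and 0 to 11 for the gate-by-group term. The median log2 change then ran from -0.27 to -0.19 in dividing cells, from -0.21 to 0.012 in absorptive and from -0.33 to -0.16 in secretory cells. The difference in the dividing share ran from -3.21 to 5.11 percentage points in stem cells and from -3.61 to 3.86 in absorptive cells. DESeq2 called 12 of the 39 over all cells and 1 in dividing cells, and 2 were called in stem cells with no filter. In dividing cells the median was -0.048 with the S phase gate and -0.14 with Mki67 and Top2a, and the gate-by-group term then called 0 with the S phase gate. A stricter lineage gate gave a median of -0.10 in secretory cells. The secretory dividing share differed by -0.561 points in cells of at least 5000 UMIs, -0.42 without the highest doublet scores and -0.724 with the stricter gate. The S-gated share differed by -5.88 points with thinned gates. The number of the 39 genes per cell differed, at 2000 and 5000 UMIs, by -0.515 and -1.02 over all cells, -0.476 and -0.978 in dividing, -0.386 and -0.75 in stem and -0.0622 and -0.161 in secretory cells, and by -0.204 at 5000 in absorptive cells. With the stricter lineage gate it differed by -0.381 in stem, -0.0579 in absorptive and 0.00219 in secretory cells, and by -0.0505 in secretory cells without the highest doublet scores. The cause of these shifts was not tested. Another 160 alternative values of the main results moved by less than the spread between libraries or, for counts, by at most 1.5 times.

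Of all genes, edgeR called 0, 0, 0, 8 and 0 in all, dividing, stem, absorptive and secretory cells; DESeq2 called 771, 89, 148, 134 and 70. With no filter the counts were 0, 29, 767, 279 and 5, without 0D-1 they were 0, 0, 7, 0 and 77, without 0D-2 0, 0, 4, 0 and 76, without 2D-1 3849, 1709, 611, 699 and 734, and without 2D-2 1681, 1271, 739, 1701 and 4518. Leaving out the highest doublet scores gave 70 in stem cells, and the stricter gate 5 in absorptive cells.

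With the replicate number as a block, the median of the 39 genes was -0.38, -0.21, -0.17, -0.14 and -0.22 in the same 5 sets and 0 of the 39 were called in each; of all genes 0, 0, 141, 19 and 132 were called. Libraries of the same number did not deviate together (correlation of 0.06 to -0.09), so they share only a number.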
